A study of Mus musculus with 6 samples.

Results

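The kinesins are motor proteins that move along microtubules or shorten them, and 43 kinesin genes were followed here in mouse hepatocytes before and 48 h after partial hepatectomy (PHx). The members were the protein-coding genes whose GENCODE M21 name is Kif or Kifc followed by a number, 43 of the 55450 genes counted and of the 21951 that code for protein. By known function they were placed in a mitotic class of 14 genes, a transport class of 15, a class of 6 linked to cilia and ciliary signalling and a class of 7 others. The remaining member, Kif1bp, is a binding partner of kinesins that is not itself a motor.

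The study measured bulk RNA-Seq in hepatocytes that were freed from the liver by collagenase perfusion. Per the labels all mice were C57BL/6 on a normal diet and 10 to 12 weeks old at surgery, with no transgene or deletion given. The study's methods call them male C57BL/6J mice and give a slightly younger age at surgery. The 0 h group held 3 libraries from undamaged livers, and the 48 h group held 3 libraries from livers 48 h after PHx, each described by the study as a biological replicate from its own hepatocyte preparation. No sham-operated mice entered the comparison, so the resection and the operation itself cannot be told apart.

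In a cell that does not divide, transport kinesins carry mitochondria, vesicles and endosomes along microtubules, and most walk toward the plus end. Mitotic kinesins are made late in the cell cycle: they slide, bundle, focus and depolymerise the microtubules of the spindle, move chromosomes along them and complete the division of the cytoplasm. PHx is a classical model of liver growth, in which mostly quiescent hepatocytes replicate their DNA and go through mitosis. Many genes of mitosis share promoter elements, among them the cell cycle genes homology region (CHR), a site of the DREAM, MuvB and FOXM1 complexes, and the CCAAT box bound by NF-Y.

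Every mitotic kinesin that could be tested rose by 48 h, and by a large factor, while the transport kinesins changed by smaller factors and in both directions. The 13 tested mitotic genes had log2 fold changes of 3.58 to 7.12 with a median of 5.20. Kif2a, a motor of spindle poles that was placed in the class of others, rose by only 0.64. Of the 13, 8 needed their 48 h libraries to pass the filter on low counts, which favours a rise. Without a filter 13 of the 14 mitotic genes were again called higher, all but Kif2b. The 12 tested transport genes had log2 fold changes of -1.52 to 0.56 with a median of -0.28, so that the 2 ranges did not meet. The median over all 17037 genes tested was -0.003. Scaled by library size only, the medians were -0.08 for the transport genes and 0.199 over all genes.

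The promoters of the mitotic class are shown first because they carried a feature that the choice of members did not use. RefSeq promoter windows on GRCm38.p6, from 250 bases before to 50 bases after a transcript start, were at hand for 33 of the 43 members. Windows were missing for Kif13b, Kif19a, Kif1bp, Kif20a, Kif21b, Kif28, Kif5a, Kif5b, Kifc2 and Kifc3. Both strands were searched. The usual letters of the CHR are TTTGAA, which appear as TTCAAA when the element lies on the opposite strand. The variant TTCGAA, which is the same on both strands, was counted as a CHR too. The CCAAT box appears as ATTGG when it lies on the opposite strand, and a box and a CHR can overlap by 1 base at most. The stretches below run from 100 bases before to 30 bases after the start, 5′ to 3′ along the strand of the gene, with CHR and CCAAT matches in capitals.

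These 8 mitotic kinesins are printed because each had a CHR match within 30 bases of its start. Kifc5b met this rule too, but its match began at base 30, the last base of these stretches.
Kif11 (chr19:37376282-37376411, plus strand): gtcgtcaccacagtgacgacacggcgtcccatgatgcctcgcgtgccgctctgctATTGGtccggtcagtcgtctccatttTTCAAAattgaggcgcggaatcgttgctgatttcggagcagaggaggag
Kif15 (chr9:122950981-122951110, plus strand): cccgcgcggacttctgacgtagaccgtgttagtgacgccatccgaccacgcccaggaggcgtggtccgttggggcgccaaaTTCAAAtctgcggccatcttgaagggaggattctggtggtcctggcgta
Kif18b (chr11:102925095-102925224, minus strand): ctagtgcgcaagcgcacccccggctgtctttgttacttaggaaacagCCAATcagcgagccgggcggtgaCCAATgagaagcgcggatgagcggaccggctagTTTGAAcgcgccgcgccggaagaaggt
Kif20b (chr19:34922258-34922387, plus strand): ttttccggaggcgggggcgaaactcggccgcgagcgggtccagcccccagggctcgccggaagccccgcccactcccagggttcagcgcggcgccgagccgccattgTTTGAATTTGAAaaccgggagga
Kif22 (chr7:127042391-127042520, minus strand): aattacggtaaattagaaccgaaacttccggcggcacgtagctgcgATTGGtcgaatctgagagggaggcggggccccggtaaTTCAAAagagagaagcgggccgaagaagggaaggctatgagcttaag
Kif23 (chr9:61946770-61946899, minus strand): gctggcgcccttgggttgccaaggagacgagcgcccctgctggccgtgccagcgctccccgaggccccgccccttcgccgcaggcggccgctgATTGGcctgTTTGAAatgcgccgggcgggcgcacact
Kif4 (chrX:100625965-100626094, plus strand): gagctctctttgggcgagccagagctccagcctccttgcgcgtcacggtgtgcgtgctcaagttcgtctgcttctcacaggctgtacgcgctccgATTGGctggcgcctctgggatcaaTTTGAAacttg
Kifc1 (chr17:33890604-33890733, minus strand): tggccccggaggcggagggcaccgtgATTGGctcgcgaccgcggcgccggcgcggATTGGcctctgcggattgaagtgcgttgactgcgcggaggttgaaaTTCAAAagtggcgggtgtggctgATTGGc

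Kif18a, a mitotic kinesin that also rose, is printed because its window held no match to either motif.
Kif18a (chr2:109280638-109280767, plus strand): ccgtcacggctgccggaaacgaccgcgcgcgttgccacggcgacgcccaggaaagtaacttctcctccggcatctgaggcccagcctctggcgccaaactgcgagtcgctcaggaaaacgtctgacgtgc

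Kif24 and Kif26b are printed because they rose after PHx from outside the mitotic class and held both motifs.
Kif24 (chr4:41464819-41464948, minus strand): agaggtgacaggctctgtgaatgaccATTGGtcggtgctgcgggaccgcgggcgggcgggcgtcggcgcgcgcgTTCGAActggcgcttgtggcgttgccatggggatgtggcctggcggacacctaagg
Kif26b (chr1:178529025-178529154, plus strand): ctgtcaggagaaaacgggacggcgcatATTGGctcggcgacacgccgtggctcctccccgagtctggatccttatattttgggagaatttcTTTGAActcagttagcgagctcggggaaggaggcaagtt

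The most abundant transport kinesins, Kif1c and Kif1b, are printed for contrast, since neither window held a CHR match.
Kif1c (chr11:70700448-70700577, plus strand): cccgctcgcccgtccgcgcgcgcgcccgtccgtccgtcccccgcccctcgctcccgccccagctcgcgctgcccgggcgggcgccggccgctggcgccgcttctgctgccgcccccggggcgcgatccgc
Kif1b (chr4:149307704-149307833, minus strand): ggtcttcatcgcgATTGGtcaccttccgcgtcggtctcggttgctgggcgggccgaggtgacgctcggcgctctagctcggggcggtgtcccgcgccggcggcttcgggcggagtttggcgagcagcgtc

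CHR matches stood in the windows of 11 of the 13 mitotic kinesins with a window, or 84.6%, against 5854 of 27025 genes, or 21.7%, over all RefSeq promoters of the same length. CCAAT matches stood in 9 of the 13, or 69.2%, against 41.1% of all genes, and both motifs stood in 1 window in 8 of the 13, or 61.5%, against 8.61%. Of the 10 transport kinesins with a window, 1 held a CHR match (in the second window of Kif1a), 3 held CCAAT and 0 held both in 1 window. The cilium class had both in 2 of 5 genes and the other class in 1 of 5.

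The position of the CHR letters was also shared. In 9 of the 13 mitotic windows, or 69.2%, a CHR match began within 30 bases of the start, against 3.95% of all genes. This limit was chosen after the positions had been seen. Kifc1 and Kifc5b, both counted here and in the shares above, have near-copy windows (87.9% identical over 272 aligned bases) and are not independent. The distance from the first base of a CCAAT match to that of the next CHR match was 24 bases in Kif4, 26 in Kif11, 33 in Kif18b, 46 in both Kifc1 and Kifc5b and 9 in Kif23. In Kif22 the shortest such distance was 18 bases, from a CCAAT match 233 bases before the start, and a pair nearer to the start began 54 and 17 bases before it. Kif20b carried a pair of CHR matches in a row, and its window had no CCAAT. The windows of Kif14 and Kif2c lay 1505 and 3867 bases inside the gene as GENCODE draws it, and which start these hepatocytes used was not measured. For 10 of the 13 mitotic windows the RefSeq start lay within 200 bases of the GENCODE start, and for Kif4 it lay 328 bases inside.

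**Figure D1:**
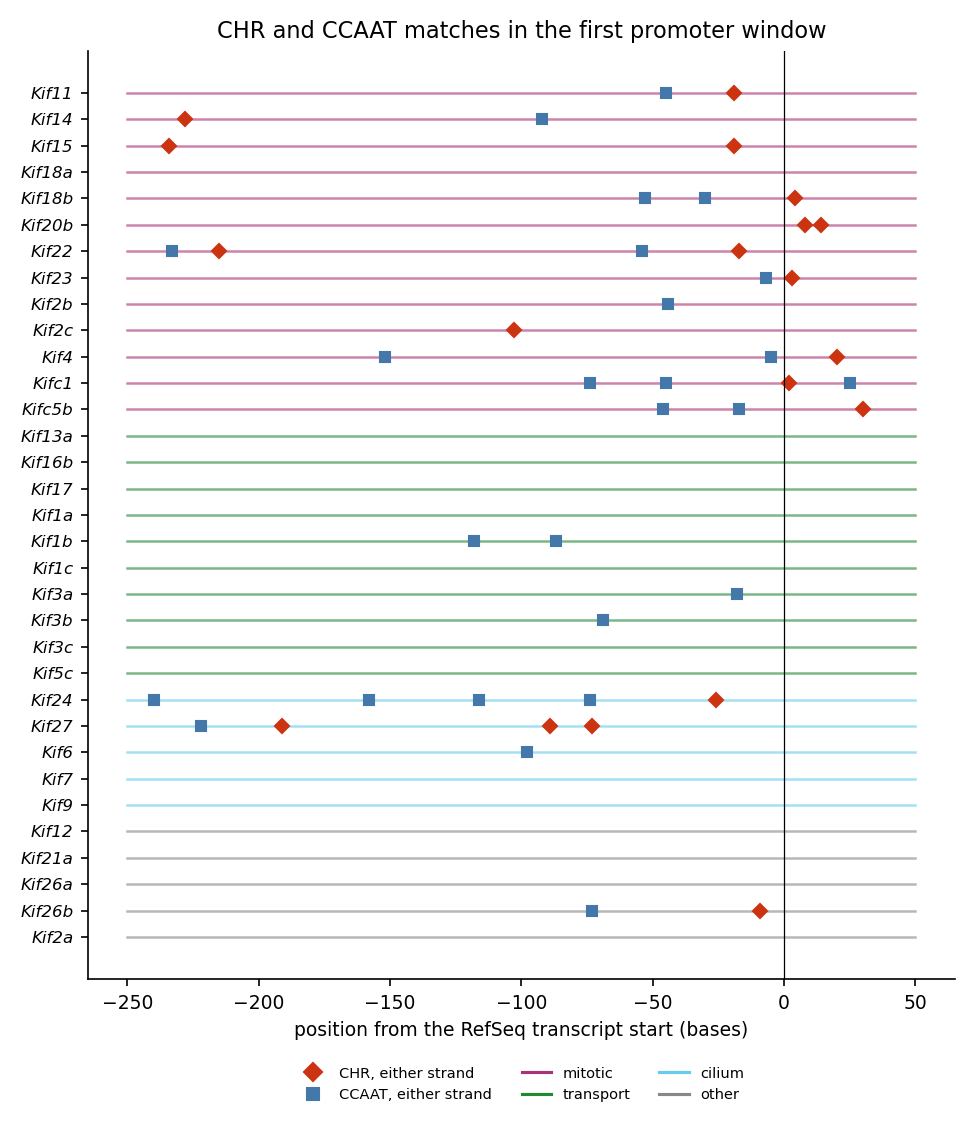
Each line is the RefSeq promoter window of 1 kinesin gene, coloured by class, with the position of CHR matches (red diamonds) and CCAAT matches (blue squares) in bases from the transcript start on the horizontal axis. CHR matches gather around the start in the mitotic class, where 9 of 13 windows have one within 30 bases, and the first windows of the transport class hold none.

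Of the 15 kinesins with a CHR match, 13 were tested and rose, and Kif1a and Kif27, with at most 4 counts in any library, were not tested. Of the 18 with a window but no CHR match, 12 were tested, of which 2 rose (Kif18a and Kif2a) and 2 fell (Kif1b and Kif3c). These counts depend in part on the filter on low counts, and nothing is read from them. Of the 13 genes with a CHR match, 8 needed their 48 h libraries to pass that filter. The windows of Kif14 and Kif2c are among the 15. Over the whole table the shares lay closer together. Of the 760 tested genes with both motifs in 1 window 32.9% rose, of the 1876 with a CHR match 27.2% rose, and of the 9080 without one 23.6% rose. A match to letters is a description of the sequence, and binding of a factor was not measured.

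Depth was similar in all libraries, with 31419443 to 36346220 reads assigned to genes at 0 h and 31684152 to 33093006 at 48 h. Values below are CPM (reads counted for a gene, per 1000000 assigned reads) after scaling by TMM, whose factors were 0.914 to 0.950 at 0 h and 1.02 to 1.11 at 48 h. A count of 3, taken as the floor of detection for counting error only, equalled 0.0825 to 0.0955 CPM before TMM scaling. Changes were tested with edgeR's quasi-likelihood test on the genes that reached 10 counts in 3 or more libraries, and a gene was called at a Benjamini-Hochberg adjusted p under 0.05. On that rule 21.4% of the 17037 genes tested were higher at 48 h and 19.3% were lower, 40.7% in either direction. Of the 43 kinesin genes 33 were tested, of which 18 rose, 5 fell and 10 passed in neither direction. A called rise of at least 1 on the log2 scale was seen in 9.69% of all genes tested and in 15 kinesins, 13 of them mitotic, and a called fall of that size in 7.94% of all genes and in 3 kinesins, all of the transport class.

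Markers of the labelled cell type were high in every library: 6 hepatocyte markers, among them albumin, summed to 77500 to 93800 CPM at 0 h and 47000 to 56800 CPM at 48 h, and 3 of the 6 fell. Markers of sinusoidal endothelium summed to 176 to 279 CPM at 0 h and 125 to 134 CPM at 48 h, with 7 of 7 lower. The 8 Kupffer cell markers summed to 61.6 to 94.1 CPM and then 94.7 to 117 CPM, with 2 of 8 higher. The 5 cholangiocyte markers summed to 9.12 to 20.7 CPM and then 16.3 to 26.0 CPM, with Krt7 and Epcam at or under the floor in every library. Of the 2 tested, Spp1 was called higher, by 1.51 on the log2 scale (adjusted p = 0.0212), though its groups overlapped. Sox9 was not called (0.41, adjusted p = 0.249), and Krt19 had at most 4 counts in any library. The sums of 5 lymphocyte markers and of 5 neutrophil markers stayed at or under 0.475 CPM in every library. In bulk RNA fewer cells of a type and less RNA per cell cannot be told apart, and the same holds for a rise of these genes in every cell or in some cells.

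The motors that build the spindle rose together. Gene coordinates here and below are those of GENCODE M21 on GRCm38, the build that mm10 holds. Kif11 (ENSMUSG00000012443.4, chr19:37376403-37421859), a tetrameric motor that slides antiparallel microtubules apart to make the spindle bipolar, had 1.19, 1.71 and 0.964 CPM in the 0 h libraries and 43.6, 51.6 and 37.9 CPM at 48 h. Its log2 fold change was 5.11 (SE 0.208, adjusted p = 6.26e-08), a 34.4-fold rise. Kif15 (ENSMUSG00000036768.6, chr9:122951046-123018733), which shares the work of Kif11 in keeping the poles apart, went from 0.306, 0.483 and 0.723 CPM to 17.5, 19.8 and 18 CPM. It rose by 5.17 on the log2 scale (SE 0.231, adjusted p = 1.02e-07) and had the smallest 48 h spread of the class relative to its mean, 18.4 ± 1.19 CPM (SD, n = 3). Kifc1 (ENSMUSG00000079553.11, chr17:33875659-33890661), a minus-end motor that focuses spindle poles, stood at 0.136, 0.451 and 0.482 CPM before PHx and at 18.9, 19.9 and 14.4 CPM after it. The fitted change was 5.60 (SE 0.297, adjusted p = 3.21e-07).

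Kifc1 has a near copy on the same chromosome. Kifc5b (ENSMUSG00000024301.10, chr17:26917091-26932583) was counted at 0.647, 0.773 and 0.331 CPM at 0 h and 6.98, 8.22 and 5.71 CPM at 48 h, a log2 change of 3.58 (SE 0.289, adjusted p = 6.74e-06) and the smallest of the class. In the GENCODE transcripts 47.6% of the 50-base words of Kifc1 and 42.1% of those of Kifc5b occur in another gene, mostly in each other, while no other member exceeded 3.04%. The split of reads between the pair is therefore uncertain. Summed over both genes the level was 0.94 ± 0.247 CPM at 0 h and 24.7 ± 4.11 CPM at 48 h (SD, n = 3 libraries each), a log2 ratio of means of 4.72. Their promoter windows were alike as well, with 239 of 272 aligned bases identical (87.9%) at a shift of 28 bases.

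The motors that work at microtubule ends rose over a wide span of folds. Kif18a (ENSMUSG00000027115.14, chr2:109280738-109341747), which damps the movements of chromosomes at the spindle equator, had 0.408, 0.58 and 0.482 CPM at 0 h and 9.2, 6.96 and 5.91 CPM at 48 h. Its log2 fold change of 3.90 (SE 0.256, adjusted p = 1.48e-06) was the second smallest among the mitotic genes. Kif2c (ENSMUSG00000028678.13, chr4:117159639-117182639), a motor that takes microtubules apart and corrects faulty attachments of chromosomes, went from 0.136, 0.451 and 0.482 CPM to 25.7, 23.8 and 13.2 CPM, a change of 5.84 (SE 0.374, adjusted p = 1.21e-06). Its relative Kif2b (ENSMUSG00000046755.5, chr11:91575315-91577558) had 0 counts in all 6 libraries, which allows at most the floor of 3 counts in each.

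The largest change of any kinesin was that of Kif18b (ENSMUSG00000051378.10, chr11:102905529-102925124), which works with Kif2c on astral microtubules. Its 0 h libraries held 3, 11 and 1 counts, or 0.102, 0.354 and 0.0301 CPM, and its 48 h libraries held 817, 949 and 621 counts, or 24.3, 26.5 and 17.7 CPM. The groups stood far apart, but the 0 h level rested on few reads. The log2 fold change was 7.12 (SE 0.39, adjusted p = 3.89e-07), rank 15 from the top among the 17037 genes tested. It was 8.40 without 0 h replicate 2, which alone held 11 of the 0 h counts, and 6.60 to 7.26 when any one of the other libraries was left out.

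Chromosome arm motors also rose. Kif4 (ENSMUSG00000034311.3, chrX:100625737-100727214), a chromokinesin that partners Prc1 in the central spindle, stood at 0.272, 0.548 and 0.482 CPM before PHx and 25.4, 29.2 and 19.6 CPM after it. The log2 fold change was 5.81 (SE 0.249, adjusted p = 8.24e-08). Pdzd11 on the opposite strand overlaps 15.1% of the exon bases of Kif4. Kif22 (ENSMUSG00000030677.8, chr7:127027729-127042471), a chromokinesin that pushes chromosome arms away from the poles, went from 0.613, 1.22 and 0.632 CPM to 21.5, 20.6 and 14.9 CPM, a change of 4.52 (SE 0.264, adjusted p = 6.25e-07).

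All motors of cytokinesis that were tested rose as well. Kif23 (ENSMUSG00000032254.10, chr9:61915905-61946774), which forms the centralspindlin complex with Racgap1, had 0.17, 0.677 and 0.361 CPM at 0 h and 15.6, 14.3 and 8.0 CPM at 48 h. The change was 4.95 (SE 0.391, adjusted p = 5.76e-06), with the widest standard error of the class in edgeR. In DESeq2 the standard error was 0.369 for Kif23 and wider, at 0.712, for Kif18b. Kif20a (ENSMUSG00000003779.16, chr18:34624613-34633277), which brings the chromosomal passenger complex to the central spindle, went from 0.817, 1.26 and 1.14 CPM to 46.6, 43.5 and 29.4 CPM. It rose by 5.20 (SE 0.23, adjusted p = 9.4e-08), and Cdc23 on the opposite strand overlaps 29.3% of its exon bases.

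Kif20b (ENSMUSG00000024795.11, chr19:34922361-34975745), a motor of late cytokinesis, had 0.272, 0.677 and 0.602 CPM at 0 h and 29, 27.6 and 20.5 CPM at 48 h. That was a change of 5.61 (SE 0.261, adjusted p = 1.29e-07). Kif14 (ENSMUSG00000041498.13, chr1:136466343-136531511), which recruits citron kinase to the midbody, had 2, 6 and 8 counts at 0 h (0.0681, 0.193 and 0.241 CPM) and 13.7, 13.7 and 8.42 CPM at 48 h. Its log2 fold change was 6.10 (SE 0.347, adjusted p = 5.25e-07), second to that of Kif18b. In each of the 13 mitotic kinesins tested every 48 h library was above every 0 h library, a pattern held by 27.8% of all genes tested.

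**Figure D2:**
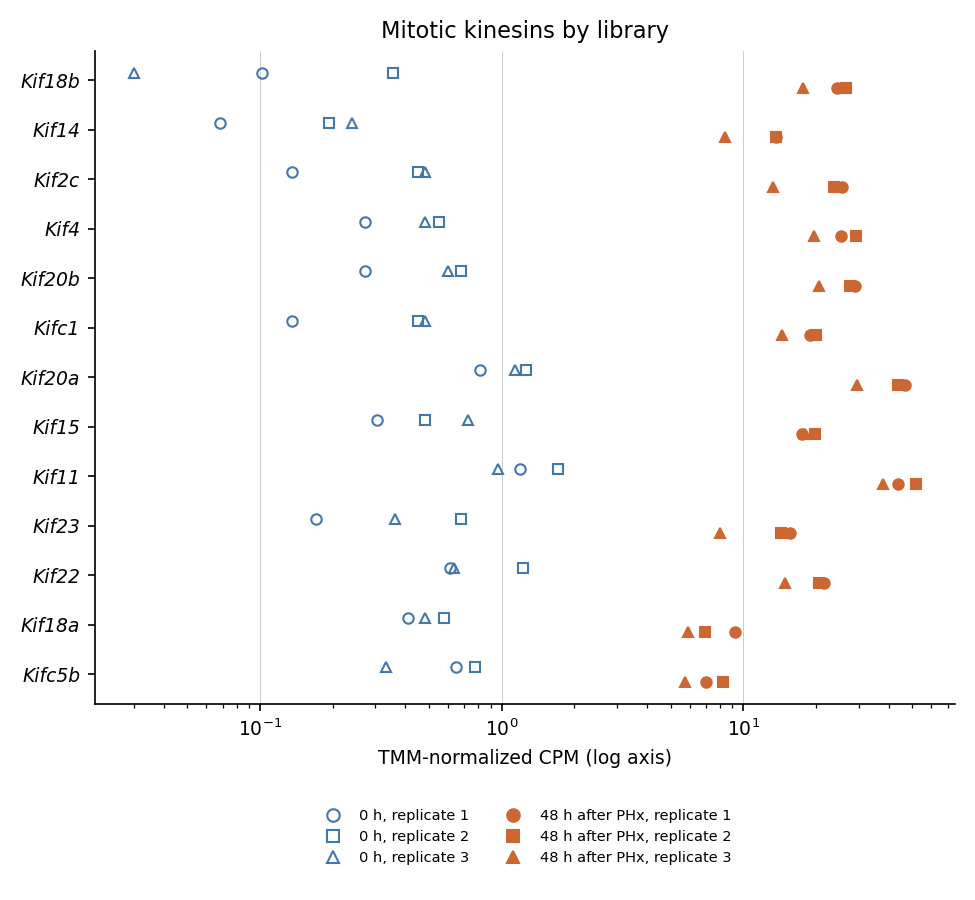
Each point is the level of 1 mitotic kinesin (genes ordered by log2 fold change) in 1 library, in TMM-normalized CPM on a log axis, with open blue marks for 0 h and filled orange marks for 48 h after PHx. In no gene do the groups overlap, and the triangle of 48 h replicate 3 lies lowest in 12 of the 13 genes.

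The 48 h libraries did not rise evenly. Replicate 3 was the lowest of the 48 h libraries in 12 of the 13 mitotic kinesins, with a median deviation of -0.32 on the log2 scale from the mean of its group, against 0.19 and 0.23 for replicates 1 and 2. The exception was Kif15. Among the 1651 called genes of the whole table that rose by at least 1 on the log2 scale, replicate 3 was lowest in 881, or 53.4%, with a median deviation of -0.12. At 0 h replicate 1 was lowest in 10 of the 13 genes and replicate 2 highest in 9. Leaving out 48 h replicate 3, or any other library, left 13 of 13 called.

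A rise of at least 3.58, the smallest of the tested mitotic kinesins, was reached by 305 of 17037 genes, or 1.79%. The 13 genes therefore all lay in the top 305, between rank 15 (Kif18b) and rank 305 (Kifc5b). Starting levels were low, between 0.0301 and 1.71 CPM over these 13 genes at 0 h, and Kif18b and Kif14 had 0 h libraries at or under the floor of 3 counts.

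Most partners of the mitotic kinesins were called higher too. Of 16 genes on a list of spindle and cytokinesis partners, 15 rose and 1 fell, beside 21.4% higher and 19.3% lower over all genes tested. Of the partners that rose, Aurkb and Hmmr needed their 48 h libraries to pass the filter on low counts, which favours a rise. The median log2 fold change of the list was 5.08, against -0.003 over all genes. Cenpe, a kinesin of the kinetochore whose name lies outside the Kif series, rose by 5.67 (SE 0.308, adjusted p = 3.72e-07). Prc1, the bundler that Kif4 binds, rose by 5.24 (SE 0.23, adjusted p = 8.99e-08), and Racgap1, the centralspindlin partner of Kif23, rose by 5.95 (SE 0.309, adjusted p = 2.82e-07). The rises were not all of this size: Cit, the citron kinase that Kif14 recruits, rose by 1.79 (SE 0.36, adjusted p = 0.00278), and Ckap5, a microtubule polymerase that interphase cells also use, by 1.21 (SE 0.131, adjusted p = 5.39e-05).

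Tpx2, which holds Kif11 and Kif15 on the spindle, went up by 6.21 (SE 0.27, adjusted p = 8.71e-08). Hmmr, a spindle pole protein, had the largest change of the list at 6.96 (SE 0.266, adjusted p = 4.73e-08). It had 6, 16 and 16 counts at 0 h and needed its 48 h libraries to pass the filter on low counts. Numa1, which anchors dynein at the poles and is also a nuclear matrix protein outside mitosis, had the lowest log2 fold change of the list. That was -0.33 (SE 0.1, adjusted p = 0.0248), from 112 to 122 CPM at 0 h to 93.1 to 96.5 CPM at 48 h. In the 15 partners that rose, 48 h replicate 3 was again the lowest library in 15 of 15, with a median deviation of -0.38.

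**Figure D3:**
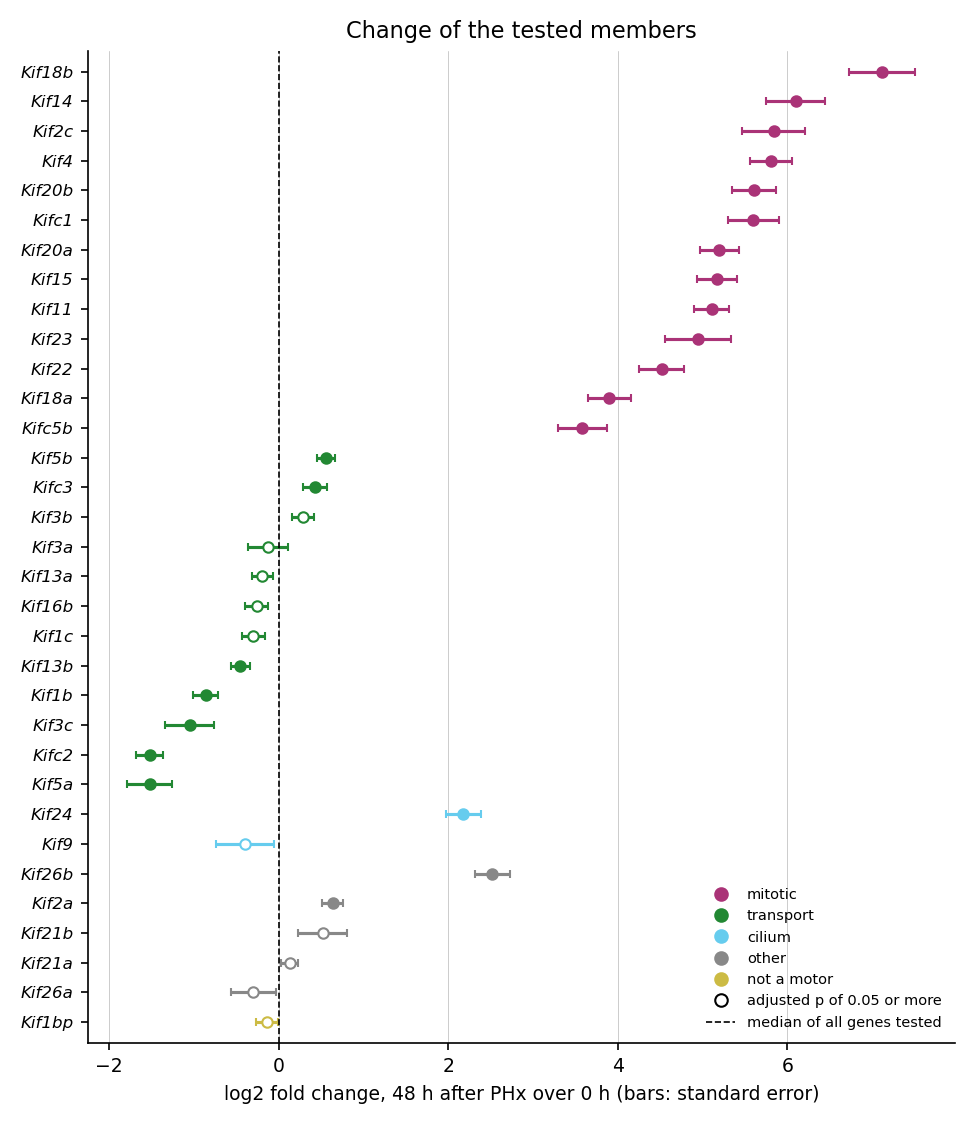
Each point is the log2 fold change of 1 tested kinesin gene, 48 h over 0 h, coloured by class, with its standard error as a bar, and open points had an adjusted p of 0.05 or more. The 13 mitotic genes lie between 3.58 and 7.12 and the 12 transport genes between -1.52 and 0.56, on both sides of the dashed median of all genes.

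The transport kinesins were the most abundant class at both time points, and their changes were smaller. Of the 12 tested, 5 fell (41.7%), 2 rose and 5 passed in neither direction, beside 19.3% lower and 21.4% higher over all genes. In the 5 that fell every 48 h library lay below every 0 h library, as in 25.0% of all genes tested, and in Kif5b, Kifc3 and Kif3b every 48 h library lay above, as in 27.8% of all genes. The 3 not tested, Kif1a, Kif5c and Kif17, had at most 4 counts in any library. These are genes best known from neurons and from cilia. Of Kif5c 2, 3 and 0 counts were seen at 0 h and 0 in each 48 h library, so both groups lay at or under the floor.

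Kif1b (ENSMUSG00000063077.14, chr4:149176319-149307693), which carries mitochondria and vesicle precursors, had 394, 452 and 373 CPM at 0 h. At 48 h it had 197, 213 and 263 CPM, so that no libraries overlapped. Its log2 fold change was -0.86 (SE 0.146, adjusted p = 0.000999). Kif1c (ENSMUSG00000020821.17, chr11:70700548-70731964), a vesicle motor also tied to the Golgi, had 287, 215 and 255 CPM and then 216, 190 and 208 CPM. The groups overlapped and the change of -0.30 did not pass the test (SE 0.135, adjusted p = 0.0995). It did pass with TMM factors from protein-coding genes (adjusted p = 0.0481) and without 0 h replicate 2 (adjusted p = 0.0244).

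Kif13b (ENSMUSG00000060012.9, chr14:64647265-64809617), which moves membrane proteins and their scaffolds, fell from 132, 122 and 119 CPM to 99.4, 83.2 and 89.9 CPM. The log2 fold change was -0.45 (SE 0.111, adjusted p = 0.0084), and with scaling by library size alone the call was lost (adjusted p = 0.0847). Kif13a (ENSMUSG00000021375.10, chr13:46749087-46929867), a motor of recycling endosomes, had 27.0, 20.9 and 23.5 CPM and then 23.0, 20.4 and 18.9 CPM, with overlap and a change of -0.19 (SE 0.128, adjusted p = 0.26).

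Conventional kinesin showed opposite directions in its heavy chains. Kif5b (ENSMUSG00000006740.14, chr18:6201002-6242174), the heavy chain found in most tissues, rose from 30.3, 30.4 and 28.0 CPM to 47.4, 40.5 and 43.1 CPM, a log2 fold change of 0.56 (SE 0.103, adjusted p = 0.00157). Kif5a (ENSMUSG00000074657.5, chr10:127225696-127263348), the form known from neurons, fell from 3.0, 3.61 and 2.02 CPM to 0.98, 0.951 and 1.06 CPM. Its change was -1.52 (SE 0.262, adjusted p = 0.00109). The light chains that link these motors to cargo were not called, with log2 fold changes of -0.32 for Klc1 (adjusted p = 0.221), 0.02 for Klc2 (adjusted p = 0.907) and -0.30 for Klc4 (adjusted p = 0.0511), and Klc3, with at most 6 counts in a library, was not tested.

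The minus-end motors of the transport class also parted. Kifc2 (ENSMUSG00000004187.11, chr15:76659858-76668196), known from axons and dendrites, fell from 11.3, 13.5 and 12.3 CPM to 3.62, 4.42 and 4.91 CPM. Its log2 fold change of -1.52 (SE 0.157, adjusted p = 4.1e-05) had the smallest adjusted p among the 5 transport kinesins that fell. Kifc3 (ENSMUSG00000031788.14, chr8:95099828-95202812), a motor of apical membranes and cell junctions, had 14.4, 10.9 and 10.8 CPM and then 16.8, 15.8 and 16.1 CPM. The change of 0.43 passed the test (SE 0.139, adjusted p = 0.0297), but the call was lost in 5 of the 6 fits that left out 1 library, with adjusted p of 0.0631 to 0.105 in those 5.

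Of the heterotrimeric motor, which moves vesicles and ciliary cargo, Kif3c was called and the other heavy chains were not. Kif3c (ENSMUSG00000020668.10, chr12:3365132-3406494) had 1.02, 1.16 and 0.873 CPM and then 0.416, 0.531 and 0.514 CPM, a change of -1.05 (SE 0.284, adjusted p = 0.0134). Genes of the opposite strand overlap 40.7% of its exon bases. The change was -0.12 for Kif3a (adjusted p = 0.716), 0.29 for Kif3b (adjusted p = 0.097) and 0.09 for the adaptor Kifap3 (adjusted p = 0.705). With scaling by library size alone Kif3b was called higher (0.49, adjusted p = 0.0093). Kif16b, a motor of early endosomes, had a change of -0.26 (adjusted p = 0.159).

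**Figure D4:**
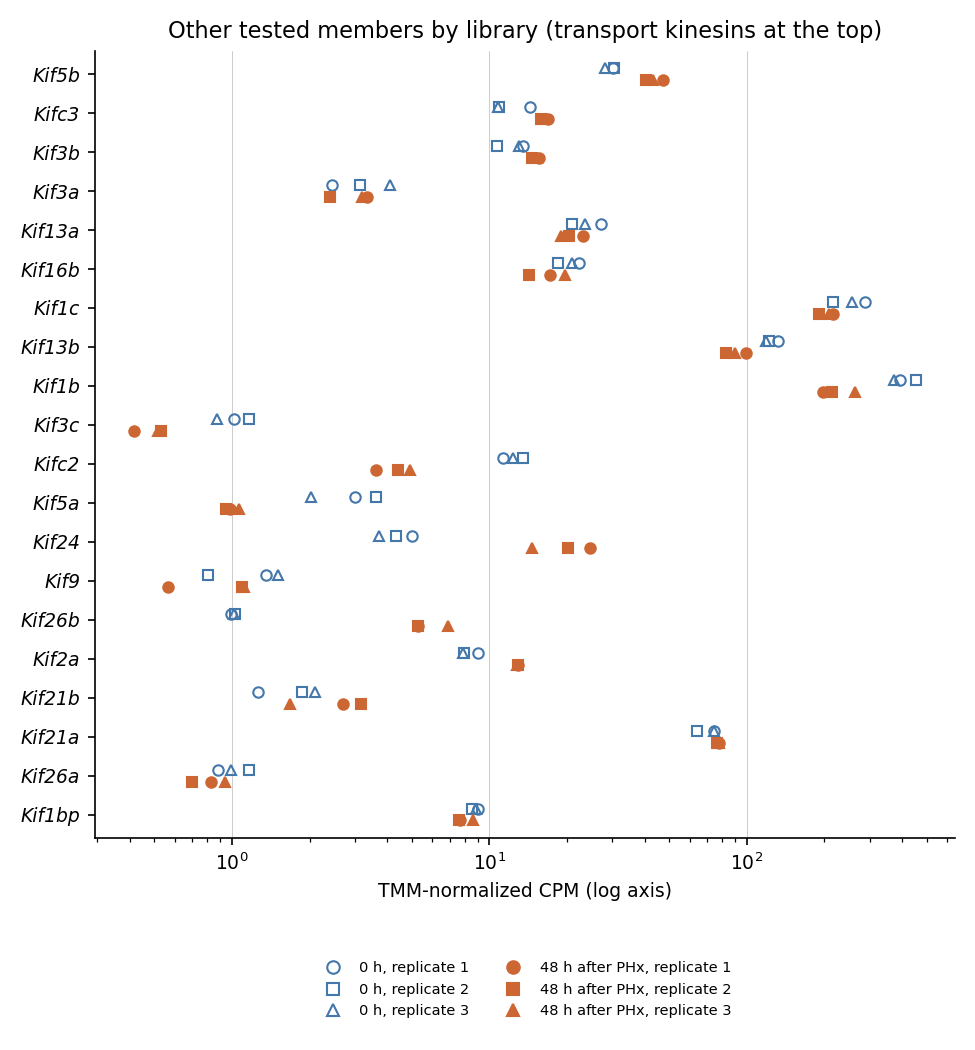
Each point is the level of 1 tested member outside the mitotic class in 1 library, in TMM-normalized CPM on a log axis, with open blue marks for 0 h and filled orange marks for 48 h after PHx. The groups separate upward in Kif24, Kif26b, Kif2a and Kif5b, by narrower gaps in Kifc3, Kif3b and Kif21a, and downward in Kif1b, Kif13b, Kifc2, Kif5a and Kif3c.

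Most cargo adaptors of the transport motors were not called. Of 16 genes on the list of transport partners 14 were tested, of which 1 rose and 0 fell, beside 21.4% higher and 19.3% lower over all genes tested, with a median log2 fold change of -0.07. The 1 that rose was Trak2, an adaptor between mitochondria and kinesin, at 0.71 (SE 0.103, adjusted p = 0.00035), and it had the largest change. Mapk8ip1, a scaffold that binds light chains, had the lowest log2 fold change, at -0.43, and was not called (adjusted p = 0.165).

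Outside both classes, 2 genes rose by more than 2 on the log2 scale. Kif24 (ENSMUSG00000028438.16, chr4:41390745-41464887), a depolymerising motor of centrioles that restrains the growth of cilia, had 5.0, 4.35 and 3.73 CPM at 0 h and 24.6, 20.2 and 14.6 CPM at 48 h. The change was 2.18 (SE 0.203, adjusted p = 1.88e-05), with 48 h replicate 3 lowest as in the mitotic class. Kif26b (ENSMUSG00000026494.12, chr1:178529125-178939200), an atypical kinesin known from cell adhesion and kidney development, rose from 0.987, 1.03 and 1.02 CPM to 5.29, 5.29 and 6.88 CPM. Here 48 h replicate 3 was the highest library.

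The log2 fold change of Kif26b was 2.52 (SE 0.206, adjusted p = 7.46e-06). Among 6 stellate cell markers, Col1a1 also rose, by 2.30 (adjusted p = 4.58e-05), from 0.753 to 0.885 CPM to 3.05 to 4.57 CPM. Reln, another marker of that list, had a change of -0.82 (adjusted p = 0.00752), and the summed level of the list was 59.1 to 94.6 CPM at 0 h and 47.0 to 58.8 CPM at 48 h, with no defining marker at 0. The part of these cells in the rise of Kif26b was not tested.

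Kif2a (ENSMUSG00000021693.20, chr13:106958996-107022126), a depolymerising motor of spindle poles that non-dividing cells also use, was placed in the other class and rose less than the mitotic motors. It had 8.99, 7.93 and 7.92 CPM and then 12.9, 12.9 and 12.8 CPM, a log2 fold change of 0.64 (SE 0.123, adjusted p = 0.00218). Dimt1 on the opposite strand overlaps 19.2% of its exon bases.

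The remaining tested members were not called: Kif21a (0.13, adjusted p = 0.361), Kif21b (0.52, adjusted p = 0.175), Kif26a (-0.30, adjusted p = 0.404), Kif9 (-0.40, adjusted p = 0.375) and Kif1bp (-0.14, adjusted p = 0.408), each as a log2 fold change. Kif7, a regulator of Hedgehog signalling at the cilium, had 2, 4 and 4 counts at 0 h and 16, 6 and 13 at 48 h, too few for the test. Without the filter on low counts it was called higher. Genes on the opposite strand, among them Ticrr of DNA replication, overlap 20.3% of its exon bases. Kif6, Kif12, Kif19a, Kif27 and Kif28 had at most 9 counts in any library.

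Because CPM follows transcript length, levels were compared between genes as TPM (transcripts per 1000000 transcripts), computed from the length of all exons of a gene. TPM carries no TMM scaling, so the ratio of time points for 1 gene differs between the scales. Kif1c, for example, had a mean of 252 CPM at 0 h and 205 CPM at 48 h, but 90.1 and 87.5 TPM. Changes over time were therefore tested on the TMM scale only, and TPM is given for the order of genes within a time point and for shares.

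At 0 h the order of mean TPM was led by Kif1c (90.1 ± 12.1, SD, n = 3 libraries), Kif1b (60.1 ± 7.64), Kif21a (28.4 ± 1.81), Kif13b (24.9 ± 1.72) and Kif5b (9.64 ± 0.685). The library values of Kif21a and Kif13b overlapped, and those of the other neighbours in this order did not. The first mitotic gene, Kif20a, came in place 16 with 0.643 TPM. At 48 h Kif1c (87.5 ± 5.31), Kif1b (39.8 ± 7.64) and Kif21a (37.1 ± 1.61) again led, the latter pair within their spread.

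Kif20a then stood in place 4 (28.4 ± 5.67 TPM), Kif18b in place 6, up from place 30 (19.8 ± 3.62), Kif11 in place 7 (18.5 ± 2.78) and Kifc1 in place 9 (16.1 ± 2.31). Each of these 4 overlapped the next of them in its library values. The scarcest tested mitotic gene at 48 h was Kif18a (2.31 ± 0.432 TPM), in place 26.

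Summed over the class, mitotic kinesins had 2.43, 4.58 and 3.1 TPM at 0 h and 166, 178 and 126 TPM at 48 h. Their share of all kinesin motor transcripts was 0.881%, 1.79% and 1.25% at 0 h and 39.5%, 42.0% and 31.4% at 48 h, or 1.31% ± 0.457 and 37.6% ± 5.54 (SD, n = 3). Shares of the summed CPM were lower, at 0.721% and 26.3%, and with Kif2a counted as mitotic the 0 h share of TPM was 2.6%. The transport class had 237, 219 and 210 TPM and then 200, 192 and 221 TPM, so its groups overlapped, and its share went from 85.2% ± 0.624 to 49.3% ± 5.04. The sum over all motors was 260 ± 14.4 TPM at 0 h and 415 ± 11.5 TPM at 48 h. In TMM-scaled CPM it was 998 ± 39.3 and 1030 ± 25.2, within the spread of the libraries, so a higher total was seen on the TPM scale only.

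The sums of the transport class also depended on the scale, which differs both in TMM scaling and in the weight of long transcripts. In TMM-scaled CPM the transport sum was 939, 902 and 863 at 0 h and 641, 600 and 684 at 48 h, with no overlap. Without Kif1b it was 545, 450 and 489 CPM and then 444, 388 and 421 CPM, each 48 h library below each 0 h library. Without Kif1b the TPM sum was 178, 150 and 156 and then 167, 154 and 173, with overlap and without TMM scaling. Kif1b and Kif1c together held 67.7% ± 0.4 of the transport TPM at 0 h and 62.2% ± 1.4 at 48 h.

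**Figure D5:**
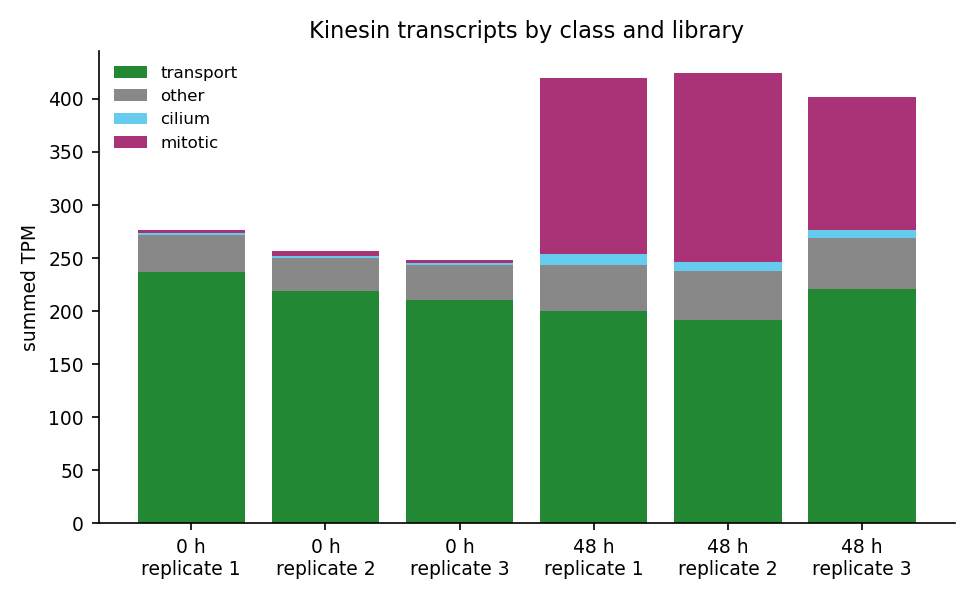
Each bar is 1 library and stacks the summed TPM of the transport (green), other (grey), cilium (blue) and mitotic (purple) kinesins. The mitotic part is 2.43 to 4.58 TPM in the 0 h bars and 126 to 178 TPM in the 48 h bars, while the transport part is 210 to 237 TPM and 192 to 221 TPM.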

How the data were processed

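RNA-Seq was measured in 6 libraries of mouse hepatocytes, 3 at 0 h and 3 at 48 h after PHx. The authors deposited 1 table of raw read counts per gene and library, in whole numbers without normalization. The submitters' processing notes name FastQC 0.11.5, Trim Galore 0.6.4, STAR 2.6, HTSeq 0.12.4, DESeq2 and the mm10 build, and whether counting used strand is not given in the sources used here. Lines that name no gene were left out of library sizes. They held 24.3% to 32.7% of a library's reads for no feature and 4.27% to 5.29% for ambiguous reads.

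Counts were matched to GENCODE M21 by versioned identifier, and all 55450 matched. Genes that reached 10 counts in 3 or more libraries were fitted together in edgeR 4.0.16 (R 4.3.3, glmQLFit and glmQLFTest, TMM factors, time point as the only term), with Benjamini-Hochberg adjustment over 17037 genes. Replicates differed well beyond sampling noise, the chi-square of their counts averaging 25.8 to 76.1 over genes for pairs within a group. TPM was computed from the summed length of a gene's exons. Overlaps and 50-base words were read from the same annotation and its transcripts, and promoter windows from RefSeq tables of GRCm38.p6.

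Members and lists were chosen with earlier results of these data known. All tested mitotic kinesins, every other called member and the 5 transport kinesins of highest mean TPM are given in full. The rest are given by log2 fold change and adjusted p, or by counts where not tested. From the lists of mitotic and transport partners, the highest and lowest log2 fold changes and Racgap1, Prc1, Cenpe, Tpx2, Klc1 to Klc4 and Kifap3 are given. Cit, Ckap5, Aurkb and other genes named for a marker or an overlap were chosen after their values were seen. The alternatives were DESeq2 1.42.0, other scalings, other filters, a fold threshold, a replicate block, and leaving out each library. Same-numbered libraries came from different mice, and the correlations of their deviations were 0.0335, -0.0674 and -0.138, so no pairing was used. The scripts were tested on simulated counts.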

Additional observations from a re-analysis of the deposited data

How the results depend on the processing

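In all 13 refits the 13 tested mitotic kinesins were called higher, and no called kinesin changed direction. Their median log2 fold change lay at 5.06 to 5.53 with any 1 library removed, and it was 5.53 without 0 h replicate 2 and without 0 h replicate 3. Scaling by library size only raised the median of all genes by 0.202, gave 5308 genes higher and 2110 lower (71.6% of calls higher, against 52.5%) and a transport median of -0.08, and Kif3b and Kif21a were then called higher while Kif13b lost its call. Under that scaling the uncalled Kif13a, Kif1bp and Kif3a had log2 fold changes of 0.01, 0.06 and 0.08. Kif3a, at -0.12 as reported, also stood at 0.09 without 0 h replicate 3. TMM factors from protein-coding genes gave 47.4% of calls higher. Without a filter on low counts 2 cilium kinesins were called higher. With a log2 fold change of at least 1 asked for as well, 1651 genes were higher and 1353 lower (9.69% and 7.94% of genes tested), and 0 transport kinesins were higher and 3 lower (edgeR, adjusted p under 0.05). When 1 library was left out, 1 to 2 transport kinesins were called higher and 5 to 6 lower, and the counts over all genes were 2874 to 3451 higher and 2638 to 3223 lower. The mitotic share of kinesin TPM at 0 h was 2.6% with Kif2a counted as mitotic and 0.721% in CPM, and at 48 h it was 26.3% in CPM. Leaving out 1 library gave shares of 1.07% to 1.52% at 0 h and 35.4% to 40.7% at 48 h. A fit with the replicate number as a block called 3237 genes higher and 2884 lower and left every kinesin call as it was, with 13 mitotic kinesins higher. DESeq2 called 3463 higher and 3263 lower. The cause of these shifts was not tested. At 0 h the 13 tested mitotic kinesins rest on 1 to 53 counts per library, which limits the precision of their folds, and the strand of reads in overlapping genes could not be checked.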

Other observations

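Dynein, the motor that walks toward the minus end, and its activator dynactin were followed as the counterpart of the kinesins. Of 18 genes on that list 18 were tested, of which 5 rose and 0 fell, beside 21.4% higher and 19.3% lower over all genes. The median log2 fold change was 0.09. Of the genes that rose, Dync1i1 and Dynlt1f needed their 48 h libraries to pass the filter on low counts, which favours a rise. The heavy chain Dync1h1 had 300, 353 and 273 CPM at 0 h and 298, 277 and 319 CPM at 48 h, with overlap and a log2 fold change of -0.05 (edgeR, adjusted p = 0.797). The light chain Dynll1, which binds many proteins outside dynein too, rose from 11.1, 8.12 and 13.0 CPM to 63.6, 54.5 and 43.9 CPM, a change of 2.33 (SE 0.187, adjusted p = 6.57e-06).

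Dynlt1f rose by 2.57 (SE 0.332, adjusted p = 0.000173) from 10, 7 and 6 counts to 56, 57 and 42, and as 1 of several near-identical Dynlt1 genes its share of the reads is uncertain. The intermediate chain Dync1i1 rose by 2.31 (SE 0.667, adjusted p = 0.0186) from 8, 3 and 1 counts to 15, 41 and 13. Each of these 0 h libraries lay under the 10 counts of the filter. Dync1i2 rose by 0.42 (adjusted p = 0.0101) and Dynlrb1 by 0.53 (adjusted p = 0.0452). The kinesin pseudogenes Kif22-ps, Kif4-ps and Kifc5c-ps and the antisense gene Kif16bos had 0 to 2 counts in each library.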
